A study of Homo sapiens with 8 samples.

Results

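The genes described here are the transcription factors TFEB, TFE3 and MITF and 7 receptors of selective autophagy, SQSTM1, NBR1, OPTN, CALCOCO2, TAX1BP1, BNIP3 and BNIP3L. They are 10 of the 19811 protein-coding genes of the GENCODE annotation on hg19, and were listed by name. For each gene, all ChIP-Seq peaks whose centre lay inside the gene or within 50 kb of it were collected from 6 peak lists. All samples came from PC3, a human prostate cancer line grown out of a bone metastasis. DAXX, a histone chaperone and transcriptional co-repressor, DNMT1, the maintenance DNA methyltransferase, and histone H3 marked at Lys4 (named DMHH3(Lys4) in the labels, with the prefix not spelled out) were each immunoprecipitated once from PC3 cells labelled wild type (WT) and once from a stable PC3 line in which an shRNA lowers DAXX (K/D), grown in puromycin. The series describes the comparison line as carrying a control shRNA, whereas the sample labels give it only as wild type. The knockdown is 1 stable line, so a difference between the lines cannot be told apart from other differences between 2 separately kept cultures. Each antibody had 1 library per line, so there was no replicate error and no test between WT and K/D.

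TFEB, TFE3 and MITF are basic helix-loop-helix factors that bind E-box sequences in the promoters of lysosome and autophagy genes, and in nutrient-fed cells they are held in the cytoplasm by mTORC1 phosphorylation and 14-3-3 proteins. Selective autophagy receptors carry a motif that binds LC3 or GABARAP proteins on the growing autophagosome and a second region that holds the cargo. SQSTM1 (p62), NBR1, OPTN, CALCOCO2 (NDP52) and TAX1BP1 recognise ubiquitinated cargo, and BNIP3 and BNIP3L (NIX) sit in the outer mitochondrial membrane and deliver mitochondria for degradation.

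A DAXX peak lay near all 10 genes in both lines, with 63 peaks in the WT list and 39 in the K/D list. Such a peak lay near 85.3% of all protein-coding genes in WT and 81.3% in K/D cells. The ratio of WT to K/D peaks was 1.62, and over the whole lists it was 1.39. K/D cells had fewer DAXX peaks than WT cells at 8 genes and as many at MITF and CALCOCO2, and no gene had more. The share of all protein-coding genes with fewer was not counted, for the full lists or for lists cut to the same length. In the full lists, the median window of all protein-coding genes held 4 WT and 2 K/D peaks. With both lists cut to the same length, 41 WT and 39 K/D peaks were left, a ratio of 1.05, and K/D cells then had fewer peaks at 3 genes, as many at 4 and more at 3. Of the 63 WT peaks, 30 overlapped a K/D peak by at least 1 bp, which is 47.6% (exact 95% binomial interval 34.9 to 60.6), and 33 did not. Among all WT DAXX peaks 48.4% overlapped a K/D peak, and among those inside or within 50 kb of any protein-coding gene 48.3% did, so the share at these genes was close to the background. Of the 39 K/D peaks 30 overlapped a WT peak (76.9%, interval 60.7 to 88.9), beside 67.4% of all K/D peaks. Peaks that overlap are called kept here, and WT peaks without a K/D partner are called lost, which means only that no peak was called there. The intervals cover counting error alone, and peaks of 1 gene share a locus and are not independent.

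**Figure D1:**
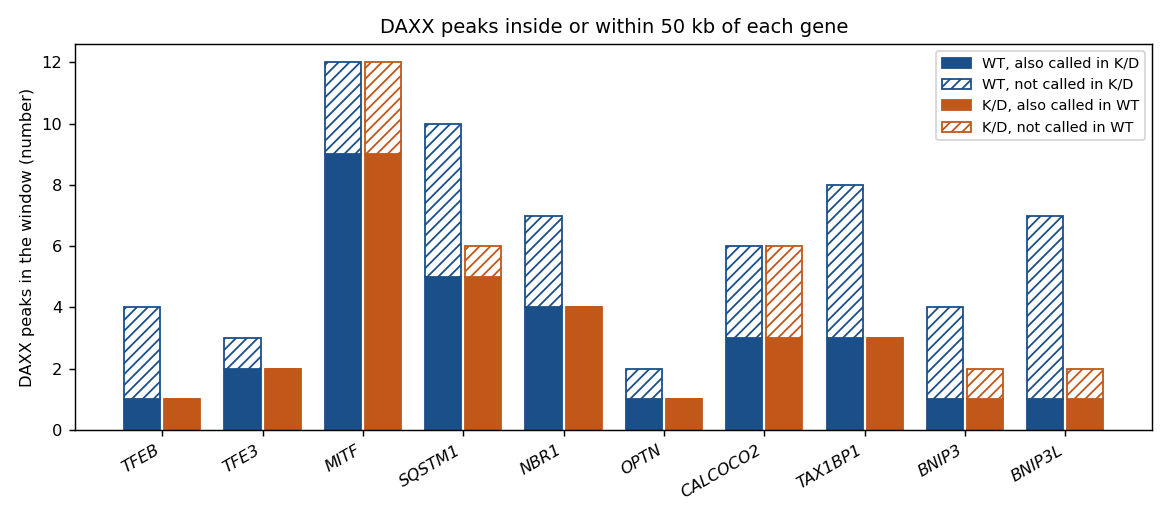
Number of DAXX peaks (vertical axis) inside or within 50 kb of each gene, WT in blue and K/D in orange, with filled bars for peaks that overlap a peak of the other line and hatched bars for peaks that do not. There was 1 library per line and therefore no error bar; the bars run from 12 and 12 at MITF to 2 and 1 at OPTN.

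The peaks near the genes lay more closely packed than over the chromosomes, with 3.74 WT peaks per 100 kb beside 1.93, and 2.31 K/D peaks beside 1.39. Against the windows of all protein-coding genes, the median number of DAXX peaks per window was 6.5 beside 4 for WT and 2.5 beside 2 for K/D. A WT DAXX peak lay within 10 kb of a TSS in 9 of the 10 genes, beside 51.2% of all protein-coding genes, and a K/D peak in 6 of 10, beside 41.8%. With lists of equal length these counts were 7 and 6, and in the first 50% of each list 6 and 5. The shares over all genes were counted for the full lists only. OPTN was the gene without such a WT peak, and TFEB, TFE3, OPTN and BNIP3L lacked one in K/D cells. The median distance from a TSS to the nearest WT peak was 1101 bp over the 10 genes and 9220 bp over all protein-coding genes. In K/D cells these medians were 3003.5 and 15495 bp. Each distance is the smallest over all starts of a gene, from 1 start at TFE3 to 13 at TFEB. The comparison with all genes was not matched for number of starts. The nearest peak was closer in WT cells at 7 genes, beside 61% of all genes with a peak of both lines on their chromosome, and 1 of the 7 was MITF, where the peaks 896 and 917 bp from a start overlap. At 4 of the 10 genes the nearest WT peak was kept, beside 44.5% of all such genes.

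**Figure D2:**
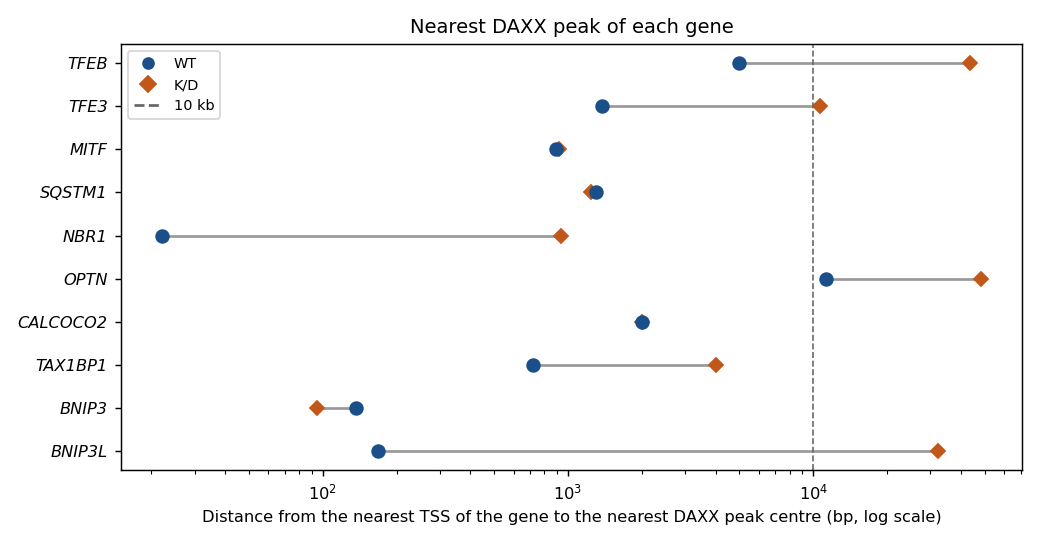
Distance in bp, on a log scale, from the nearest TSS of each gene to the nearest DAXX peak centre in WT (blue circles) and K/D cells (orange diamonds), 1 library each, with a dashed line at 10 kb. The pairs lie nearly on each other at MITF, SQSTM1 and CALCOCO2, and lie farthest apart at BNIP3L, where the distance was 168 bp in WT and 32379 bp in K/D cells.

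Sequences of single WT DAXX peaks were read on the plus strand of GRCh37, the same assembly as hg19. Shown are 5 WT DAXX peaks that either held an E-box or AP-1 motif or came first in the list at their gene. Each is the peak as deposited, 173 bp long. Capitals mark the E-box CACGTG, the AP-1 motif TGANTCA and the nuclear receptor motif TGACCT, on either strand, and a sequence without capitals held none of them. The sequences read but left out held none of them either, so the 5 do not show how common these motifs are. They are SQSTM1 at chr5:179246493-179246665 (E-box at bases 68 to 73 and AP-1 at 95 to 101), BNIP3 at chr10:133795522-133795694 (E-box at 35 to 40), OPTN at chr10:13130088-13130260 (AP-1 at 112 to 118 and 123 to 129), TAX1BP1 at chr7:27824047-27824219 (AP-1 at 33 to 39 and the receptor motif at 101 to 106) and MITF at chr3:69916244-69916416.
SQSTM1: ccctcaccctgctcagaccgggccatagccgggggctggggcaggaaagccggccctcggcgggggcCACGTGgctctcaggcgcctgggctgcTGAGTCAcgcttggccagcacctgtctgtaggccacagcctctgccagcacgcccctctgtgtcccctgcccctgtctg
BNIP3: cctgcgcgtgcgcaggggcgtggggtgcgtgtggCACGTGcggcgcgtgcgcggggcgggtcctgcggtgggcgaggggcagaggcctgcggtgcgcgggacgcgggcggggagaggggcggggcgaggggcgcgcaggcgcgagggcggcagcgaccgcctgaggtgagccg
OPTN: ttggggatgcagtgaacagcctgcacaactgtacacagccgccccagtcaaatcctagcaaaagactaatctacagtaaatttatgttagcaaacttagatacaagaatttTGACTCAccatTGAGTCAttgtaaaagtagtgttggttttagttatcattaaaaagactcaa
TAX1BP1: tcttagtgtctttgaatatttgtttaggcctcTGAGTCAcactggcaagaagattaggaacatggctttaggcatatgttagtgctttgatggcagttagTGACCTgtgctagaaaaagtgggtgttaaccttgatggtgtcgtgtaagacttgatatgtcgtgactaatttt
MITF: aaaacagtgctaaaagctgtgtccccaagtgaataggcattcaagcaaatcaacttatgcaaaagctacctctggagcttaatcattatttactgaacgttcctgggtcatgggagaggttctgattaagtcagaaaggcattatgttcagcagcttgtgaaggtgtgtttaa
The 5 sequences differed in base composition, and the BNIP3 promoter peak was the richest in G and C at 82.7%, beside 71.7% for SQSTM1, 40.5% for MITF and 39.9% for TAX1BP1, with OPTN the lowest of the 5.

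Of the transcription factors, MITF had the most DAXX peaks of the 10 genes and lost few of them, but its window was also the widest, 328.881 kb. Per 100 kb it held 3.65 peaks in each line. Over all 10 windows there were 3.74 WT and 2.31 K/D peaks per 100 kb, and at SQSTM1 7.59 and 4.56. MITF, the lineage factor of melanocytes and osteoclasts, spans 228.881 kb of chromosome 3 (69788607 to 70017487, plus strand) with 11 annotated starts, and 11 of its 12 peaks lay inside the gene in each line. Of the 12 WT peaks 9 were kept. The kept peak that came first in the list lay 912 bp downstream of an internal start, in an intron, at place 3383 of the WT list and place 7399 of the K/D list. The peak nearest to any start lay 896 bp upstream of another internal start, at place 38978 in WT and 15791 in K/D. As a share of each list, since the K/D list is shorter, the first of these peaks stood at 5.66% in WT and 17.2% in K/D, and the second at 65.2% and 36.8%. The 3 lost peaks were intronic, at places 37284, 57193 and 59226, and each lay on a WT H3(Lys4) region. K/D cells had 3 MITF peaks of their own, at places 22443, 35741 and 38465.

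TFEB kept 1 of 4 WT DAXX peaks, and its gene body (chromosome 6, 41651716 to 41703997, minus strand) held none in either line. The nearest WT peak lay 4982 bp upstream of the outermost start, in an intron of the neighbouring gene PGC, at place 47487, and was lost. Another 2 lost peaks lay 30252 and 31066 bp upstream in intergenic sequence. The 1 kept peak lay 43731 bp upstream of TFEB at the promoter of FRS3, an adaptor of FGF receptors, at place 6689 in WT and 5616 in K/D. TFE3 (chromosome X, 48886237 to 48900936, minus strand) had 1 WT peak in its own first part, 1376 bp downstream of its start, at place 54236, and that peak was lost. The 2 kept peaks of the TFE3 window lay at other genes, in an intron of CCDC120 and at the promoter of WDR45, an autophagy gene that binds phosphoinositides. At TFEB and TFE3 every peak whose nearest TSS was that of the factor was therefore lost, 1 peak in each case, whereas all 12 WT peaks of the MITF window had a MITF start as their nearest and 9 were kept.

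Among the ubiquitin-binding receptors, SQSTM1 had the most WT DAXX peaks, 10, of which 5 were kept, and its 6 K/D peaks equalled those of CALCOCO2. SQSTM1 (chromosome 5, 179233398 to 179265078, plus strand) also links autophagy to the KEAP1 and NRF2 antioxidant response. The first WT peak of its window lay 1810 bp upstream of a start, in an intron of a longer SQSTM1 transcript, at place 7975, and its K/D partner stood at place 4195. The nearest peak, printed above, lay 1306 bp upstream of the same start, at place 37589 in WT and 17899 in K/D. A peak 5338 bp downstream stood at places 39277 and 14297. As shares of the lists, these 3 kept peaks stood at 13.3%, 62.9% and 65.7% in WT and at 9.78%, 41.7% and 33.3% in K/D, and the fourth WT peak inside SQSTM1, 2714 bp upstream of the start at place 39276, was lost. The remaining 6 WT peaks lay at MAML1, LTC4S, MGAT4B and MRNIP, and 2 of those were kept.

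NBR1, which resembles SQSTM1 in its domains, was the gene with a WT DAXX peak on its start. That peak lay 22 bp upstream of the NBR1 TSS (chromosome 17, 41322498 to 41363708, plus strand) at place 29777, and no K/D peak was called there. A second WT peak, 961 bp downstream in the first part of the gene, stood at place 33660 and was kept, with a K/D peak 934 bp downstream at place 24867. The window held 7 WT and 4 K/D peaks, and all 4 K/D peaks overlapped a WT peak. Of the 5 other WT peaks, 2 lay at a TSS of another gene upstream and 3 in intergenic sequence 64103 to 70132 bp downstream of the NBR1 start, nearest to TMEM106A.

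OPTN, a receptor for mitochondria and bacteria that is activated by the kinase TBK1, had the fewest WT DAXX peaks and, like TFEB, 1 K/D peak. Its 2 WT peaks lay 11275 bp upstream, in an intron of CCDC3 at place 50250, and 48462 bp downstream towards MCM10 at place 41381. The upstream peak, which holds the pair of AP-1 motifs printed above, was lost. The downstream peak was kept, at place 41243 in K/D cells. No peak of either line lay inside OPTN (chromosome 10, 13141449 to 13180308, plus strand).

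CALCOCO2 (chromosome 17, 46908380 to 46943884, plus strand), a receptor for bacteria and damaged mitochondria, had 6 DAXX peaks in each line, none of them inside the gene. Of the 3 kept peaks, the one nearest to the start was intergenic, 2007 bp upstream, at place 7048 in WT and 2815 in K/D. Another kept peak lay 40250 bp upstream in an intron of TTLL6. The 3 lost WT peaks and the 3 peaks called only in K/D all lay downstream of the gene, nearest to ATP5MC1 or UBE2Z, so that equal counts in the lines did not mean the same positions.

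TAX1BP1 (chromosome 7, 27778950 to 27884183, plus strand), a receptor for protein aggregates, kept 3 of 8 WT DAXX peaks, and K/D cells had no others. The peak nearest to a start lay 717 bp downstream, in the first part of the gene, at place 31788, and was lost. The nearest kept peak lay 4028 bp upstream at place 29325, with its K/D partner at place 16980. The first WT peak in the list, 44352 bp downstream inside the gene, was kept at place 5336 in WT and 7482 in K/D. The lost peaks at 5150 bp downstream and 29422 bp upstream stood at places 29326 and 17185. The latter was the earliest in the list among all 33 lost peaks of the 10 genes.

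BNIP3 and BNIP3L, the mitophagy receptors induced under low oxygen, both had a WT DAXX peak within 200 bp upstream of a start, and that peak was kept at BNIP3 and lost at BNIP3L. At BNIP3 (chromosome 10, 133781188 to 133795471, minus strand) it lay 137 bp upstream at place 29541, with a K/D peak 95 bp upstream at place 20307. The other 3 WT peaks of the BNIP3 window were lost, 1 of them 2075 bp inside the gene and 2 in an intron of PPP2R2D. At BNIP3L (chromosome 8, 26240570 to 26363152, plus strand) the promoter peak lay 168 bp upstream at place 41238, and the nearest K/D peak lay 32379 bp upstream, in PPP2R2A. BNIP3L kept 1 of 7 WT peaks, an intronic peak 60986 bp downstream of a start at place 3944 in WT and 3076 in K/D.

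**Figure D3:**
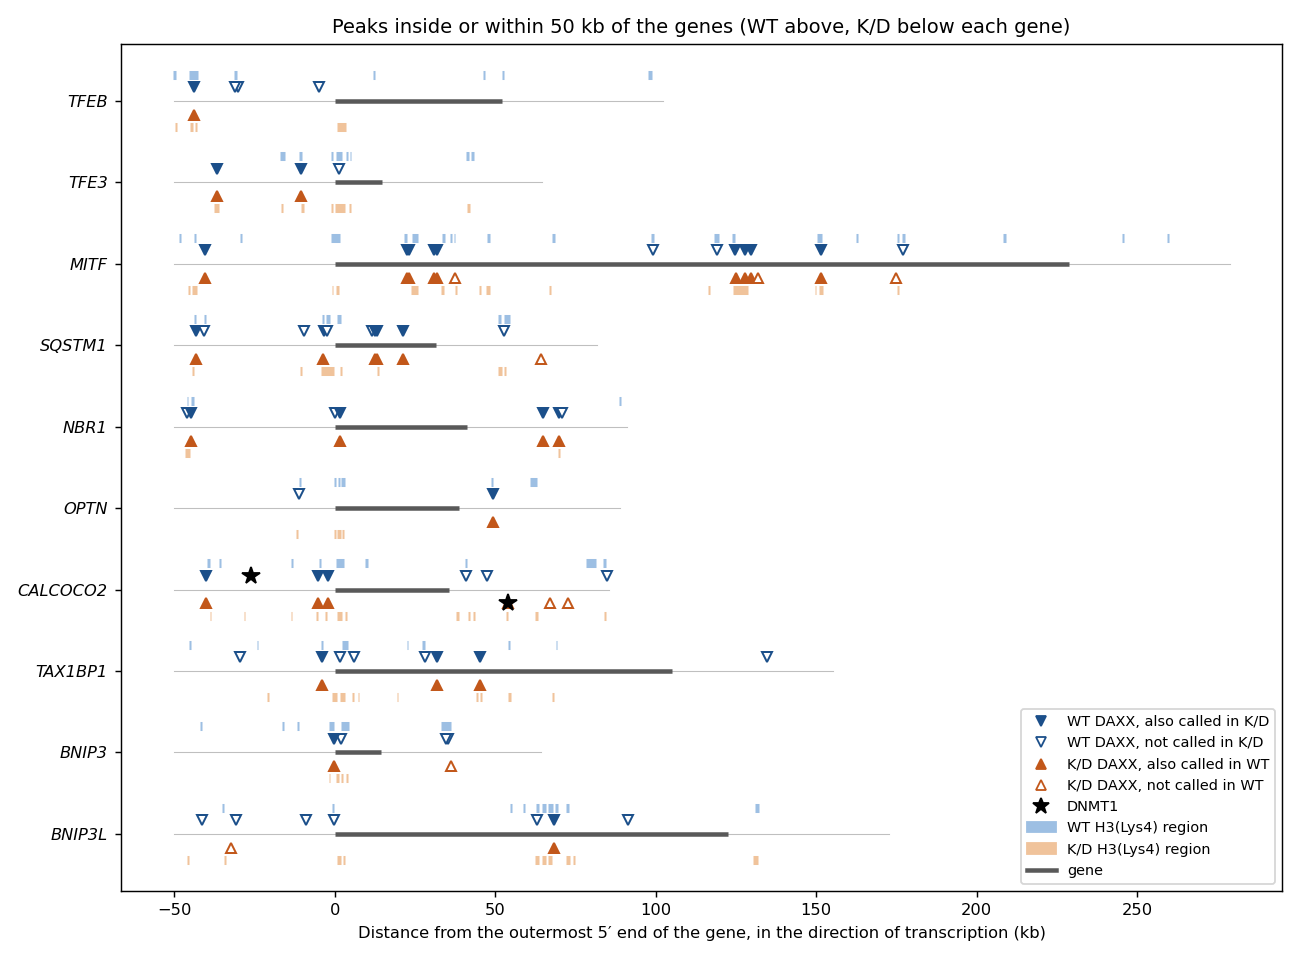
Position of peaks along each gene, in kb from the outermost 5′ end in the direction of transcription, with WT above and K/D below each gene (1 library each). Triangles are DAXX peaks, filled where the other line has an overlapping peak, coloured blocks are H3(Lys4) regions to scale, stars are DNMT1 peaks and the thick line is the gene; MITF shows 11 peaks inside the gene in each line, and OPTN, CALCOCO2 and TFEB show none inside it.

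Kept and lost peaks differed in their place in the list. The authors' caller lists peaks by strength, and the median place of the 30 kept WT peaks was 45.0% of the list, beside 72.7% for the 33 lost peaks. All 8 WT peaks in the first 25% of the list were kept, then 10 of 15, 10 of 23 and 2 of 17 in the following parts of the same length. Over the whole WT list the shares kept in these parts were 82.9%, 55.7%, 35.5% and 19.3%. In the K/D list, 8 of 8, 14 of 14, 5 of 7 and 3 of 10 peaks overlapped a WT peak, beside 94.5%, 78.4%, 59.4% and 37.3% of all K/D peaks. The peaks of the 10 genes thus followed the order of the whole lists, with the intervals at these counts wide (63.1 to 100% for 8 of 8). Several pairs of peaks at 1 gene stood at neighbouring places, such as 39276 and 39277 at SQSTM1 and 43437 and 43438 at BNIP3, so small differences in place carry no order.

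**Figure D4:**
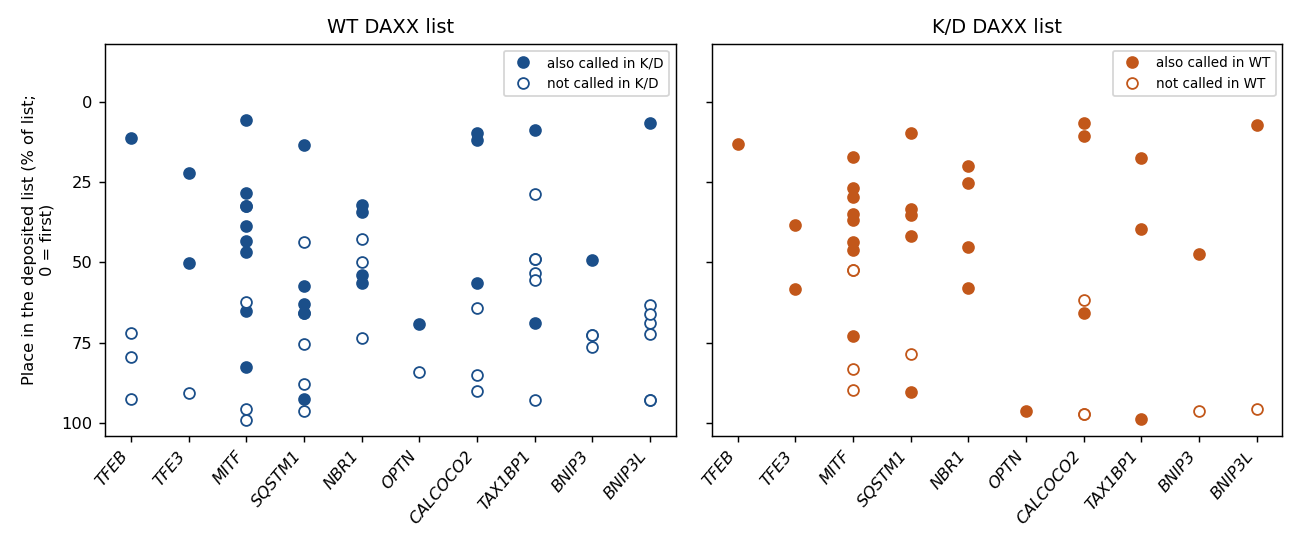
Place of each DAXX peak in its deposited list, as a percentage of the list with the first peak at 0 and at the top, by gene, for WT (left, blue) and K/D (right, orange). Filled points overlap a peak of the other line and open points do not; all 8 WT points in the first 25% are filled, and the median is 45.0% for filled and 72.7% for open WT points.

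Most of the peaks lay outside promoters, as did most peaks of the whole lists. Of the 63 WT peaks, 9 lay in a promoter (1000 bp upstream to 100 bp downstream of any TSS), 1 in an exon, 38 in introns and 15 in intergenic sequence, and of the 39 K/D peaks 5, 1, 23 and 10 did. Over the whole lists 7.05% of WT and 7.13% of K/D peaks lay in a promoter, beside 14.3% (interval 6.75 to 25.4) and 12.8% (interval 4.30 to 27.4) here. The nearest TSS was that of the listed gene for 39 of 63 WT peaks and 24 of 39 K/D peaks, so that more than 1 peak in 3 lay closer to a neighbour.

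DNMT1 peaks were scarce near these genes, as they were near all protein-coding genes. Within 10 kb of a TSS none of the 10 genes had a DNMT1 peak, in WT or in K/D cells, beside 2.54% and 0.888% of all protein-coding genes. In the larger windows 1 gene of 10, CALCOCO2, had a DNMT1 peak in each line, beside 11.4% and 4.07% of all genes. The WT peak (chr17:46882279-46882407) lay in an exon of TTLL6, 26045 bp upstream of CALCOCO2, at place 1650 of the WT DNMT1 list, and was on no DAXX peak. The K/D peak (chr17:46962220-46962340) lay 53883 bp downstream of the CALCOCO2 start at place 543, on a K/D DAXX peak at place 41764 and on a K/D H3(Lys4) region. The 2 DNMT1 peaks were 79.9 kb apart, and each was absent from the list of the other line.

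H3(Lys4) regions lay near all 10 genes in both lines, 85 in WT and 76 in K/D cells, which covered 86.4 and 73.0 kb of the windows. Regions lay near 90.2% of all protein-coding genes in WT and 90% in K/D cells. Among the WT regions 41 had an overlapping K/D partner (48.2%, interval 37.3 to 59.3), beside 45.8% of all WT regions, and of the K/D regions 43 overlapped a WT region (56.6%), beside 48.2% of all K/D regions. The WT share rested on the overlap rule, and was 9.41% with centres within 100 bp and 25.9% with at least 50% of each region in common. A region covered a TSS of TFEB, MITF and OPTN in WT cells, 3 of 10 genes beside 29.2% of all genes. In K/D cells TAX1BP1 joined these 3, which made 4 of 10 beside 18.9% of all genes. At OPTN the regions of the lines overlapped, with widths of 642 bp in WT and 501 bp in K/D cells. A width of exactly 501 bp recurred at many regions in both lines and was not read as a narrowing.

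At TFEB the starts covered were different. The WT region, 801 bp wide at place 31136, covered an internal start, and the K/D region, 2725 bp wide at place 1041, covered a start nearer to the 5′ end, with the centres of the regions 10.2 kb apart. At MITF a K/D region of 4594 bp (chr3:69912874-69917467, place 1862) covered an internal start and 2 K/D DAXX peaks, including the one 928 bp downstream of that start. The WT region there was 1038 bp wide and ended short of the start. The outermost MITF start had the opposite order, with a WT region of 2733 bp on it and K/D regions of 501 and 1030 bp beside it. Another internal MITF start was covered in both lines, by overlapping regions of 1977 bp in WT and 2347 bp in K/D. At TAX1BP1 a K/D region of 1417 bp at place 4721 covered the start, and the nearest WT region lay 2393 bp downstream.

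SQSTM1 and BNIP3 showed further differences between the lines. A K/D region of 639 bp lay 899 bp upstream of an SQSTM1 start and overlapped the K/D DAXX peak 1239 bp upstream, and the nearest WT region lay 13106 bp away. At BNIP3 the WT regions on either side of the start were 1617 and 2581 bp wide, and the K/D regions there were 501 to 962 bp wide. NBR1 had no region within 44 kb of a start in either line. Place in the H3(Lys4) lists followed the caller's peak numbers less closely than in the DAXX lists, so it is given here without comparison.

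An H3(Lys4) region of the same line overlapped 22 of the 63 WT DAXX peaks (34.9%, interval 23.3 to 48.0), beside 37.4% of all WT DAXX peaks, and 10 of the 39 K/D peaks, beside 28.7% of all K/D DAXX peaks. Among the kept WT peaks 7 of 30 lay on a region (23.3%, interval 9.93 to 42.3) and among the lost peaks 15 of 33 (45.5%, interval 28.1 to 63.6). The intervals overlap. Of the 15 lost peaks on a region, 6 lay on a WT region that overlapped a K/D region, and of the 7 kept peaks 5 did. These shares were not counted over all kept and all lost WT DAXX peaks. Whether the contrast is particular to these genes was therefore not tested.

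Motifs on either strand were looked for up to 100 bp from each peak centre. The E-box CACGTG, which TFEB, TFE3 and MITF bind, was found in 4 of the 63 WT DAXX peaks (6.35%, interval 1.76 to 15.5), beside 2.38% of all WT peaks. Of these 4 peaks, 2 are the SQSTM1 and BNIP3 peaks printed above, 1 lay in PPP2R2D in the BNIP3 window and 1 inside BNIP3L. The M-box TCATGTG was found in 3 peaks (4.76%) beside 3.98% of all peaks, at SQSTM1, CALCOCO2 and TAX1BP1. The DAXX peaks of the 3 factor genes themselves held neither motif.

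The AP-1 motif TGANTCA, bound by FOS and JUN proteins, was found in 18 of the 63 peaks (28.6%, interval 17.9 to 41.3), beside 46.6% of all WT DAXX peaks, a share above the interval. It was found in 12 of 30 kept and 6 of 33 lost peaks, beside 51.1% of all kept and 42.4% of all lost WT peaks. The nuclear receptor motif TGACCT was found in 23 peaks (36.5%, interval 24.7 to 49.6) beside 30.8%, in 16 of 30 kept and 7 of 33 lost peaks, beside 38.3% and 23.9%. For the remaining motifs the background lay inside the interval. The hypoxia response core (ACGTG or GCGTG, the first of which is also part of the E-box) was in 17 peaks (27.0%) beside 21.5%. The antioxidant response motif TGANNNNGC, which can overlap an AP-1 motif, was in 26 (41.3%) beside 34.8%, and the ETS motif CCGGAA was in 4 (6.35%) beside 4.16%. A match is a description of the letters and not evidence that a factor binds.

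**Figure D5:**
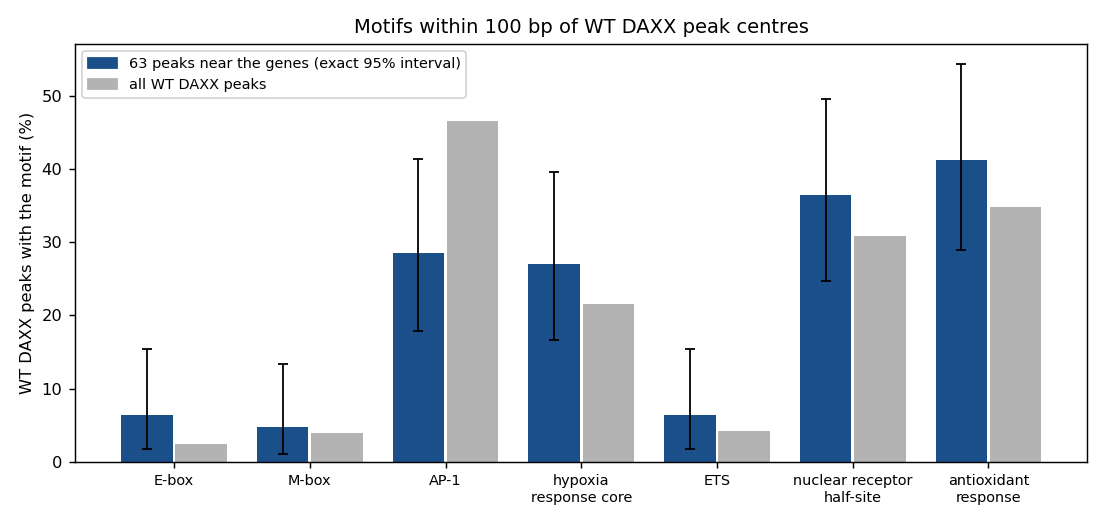
Share in percent of the 63 WT DAXX peaks near the 10 genes (blue, with exact 95% binomial intervals for counting error) and of all WT DAXX peaks (grey) that hold each motif within 100 bp of the centre. The AP-1 bar is 28.6% beside 46.6%, and the grey bars of the other 6 motifs lie inside the blue intervals.

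RefSeq promoter sequences on GRCh38.p14, from 250 bases before to 50 after a start, were matched for 9 of the 10 genes (18 promoters). The E-box was found in a promoter of BNIP3 alone, beside 7.26% of the 35116 promoters of the table. AP-1 was found in 1 of TFE3, beside 7.71%, and the ETS motif in 3 promoters, of MITF, SQSTM1 and TFEB, beside 17.2%.

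By which of the 6 lists had a peak within 10 kb of a TSS, the 10 genes fell into 5 patterns. MITF, CALCOCO2, TAX1BP1 and BNIP3 had DAXX and H3(Lys4) in both lines, as had 5608 of all protein-coding genes (28.3%). TFEB, TFE3 and BNIP3L had DAXX in WT cells alone and H3(Lys4) in both, as had 2296 genes (11.6%). OPTN had H3(Lys4) in both lines and no DAXX peak, as had 3180 genes (16.1%). The patterns of SQSTM1 (DAXX in both lines, H3(Lys4) in K/D cells alone) and NBR1 (DAXX in both lines and nothing else) were shared with few other genes, 372 in all (1.88%) and 187 in all (0.944%).

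The other genes of the pathway were read from 4 lists with 53 distinct genes. Of 16 further selective autophagy receptors, 11 had a DAXX peak within 10 kb in WT and 11 in K/D cells, with median distances of 1120.5 and 1073 bp, and 37 of 78 WT peaks of their windows were kept. The WT peaks standing first belonged to the endoplasmic reticulum receptors ATL3 and TEX264, the glycogen receptor STBD1 and the mitochondrial receptor BCL2L13, at places 10283, 17606, 10705 and 15467. Those of ATL3 and TEX264 were lost, and those of STBD1 and BCL2L13 were kept. CCPG1 and WDFY3 had a WT DNMT1 peak in their windows.

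Of 14 regulators of TFEB, TFE3 and MITF, 11 had a WT peak of DAXX within 10 kb and 6 had a K/D peak, and the median distance was 6067 bp in WT and 16192.5 bp in K/D cells. In their windows 39 of 77 WT peaks were kept. The earliest peaks within 10 kb, all kept, were near YWHAZ, a 14-3-3 protein (place 1368), PPP3CB, a catalytic subunit of calcineurin (2017), LAMTOR1 of the Ragulator complex (13177) and TFEC, the fourth member of the family (16662). Their distances from a start were 3794, 205, 9592 and 9341 bp. FNIP1, a partner of folliculin, and RPTOR, the Raptor subunit of mTORC1, had a WT DNMT1 peak in their windows and a lost DAXX peak near a start, 83 bp from it at FNIP1 and 986 bp at RPTOR.

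Of 14 lysosome and autophagy genes known as TFEB targets, 8 had a WT peak of DAXX within 10 kb and 7 had a K/D peak (medians 8522 and 10806 bp), with 34 of 70 WT peaks kept. The earliest belonged to the proteases CTSD (place 4947) and CTSB (10758), both kept, to the autophagosome protein MAP1LC3B (16359, lost) and to the sialidase NEU1 (24227, kept). UVRAG and VPS18, both of vesicle trafficking, had a WT DNMT1 peak in their windows, at UVRAG 486 bp from a start. In K/D cells the windows of UVRAG, NEU1 and YWHAZ held a DNMT1 peak, at YWHAZ 5774 bp from a start, and no other gene of the 4 lists had one. Of 10 kinases, ligases and factors that act on the receptors, 7 had a WT peak of DAXX within 10 kb and 8 had a K/D peak (medians 769 and 1033 bp), with 37 of 68 WT peaks kept. The earliest were near NFE2L2 (NRF2, place 4616), FOXO3 (4919), AZI2, an adaptor of TBK1 (6813), and KEAP1 (17422), of which that near KEAP1 was lost. Their distances from a start were 3, 5030, 62 and 120 bp. ULK1, the kinase that starts autophagy, had a WT DNMT1 peak in its window, 45.8 kb from a start. In the 4 lists the share of genes with a WT DAXX peak within 10 kb was above the 51.2% of all genes, and the lists were set beside it as a description, with no test. For K/D peaks the share of all genes was 41.8%. Median distances over all genes were 9220 bp in WT and 15495 bp in K/D cells, and 48.4% of all WT DAXX peaks were kept. A DNMT1 peak lay in the windows of 11.4% of all genes in WT and 4.07% in K/D cells.

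For the series as a whole, the file headers give 12050101 to 18705056 tags per library. DAXX peaks held 15.8% of tags in WT and 6.83% in K/D cells, and the WT list was the longer one (59761 against 42876 peaks used). The 2 H3(Lys4) lists were of nearly equal length (72064 and 72181), and the DNMT1 lists held 2234 and 595 peaks. Whether the lower share of tags in K/D DAXX peaks moved single peaks of these genes out of the list was not tested.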

How the data were processed

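ChIP-Seq was performed once per antibody and line, and the 2 input libraries have no list here. Per the labels and methods of the study, the authors used CASAVA 1.8.2 for base calling, Bowtie2 2.1.0 for mapping to hg19 and HOMER 4.6 for peak calling in each library against its input. Per the file headers, a peak had to exceed input 4-fold at a Poisson p-value of 0.0001 and, for DAXX and DNMT1, meet an FDR of 0.001. A weaker library loses peaks near such limits. The deposited values used are start and end positions. The deposited score column holds 1 value for all peaks and could not rank them, so place in the deposited list was used.

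Autosomes, X and Y were used, without 113 peaks of other contigs. Genes came from GENCODE release 44 mapped to GRCh37 (63780 basic coding transcripts). A gene's distance was the smallest from any of its starts to a peak centre. With 1 library each, WT and K/D were compared without a test. Shares carry exact Clopper-Pearson 95% intervals. Counts and motif searches were checked on simulated data. Analyses ran in Python 3.11.15 with numpy 2.4.6, scipy 1.17.1 and matplotlib 3.10.9. The genes, lists and motifs were chosen with earlier results of these data known. Peaks named were, for each gene and DAXX list, the nearest to a start and the first in the list, all DNMT1 peaks and H3(Lys4) regions on a start, except that the first peaks of the CALCOCO2 and NBR1 windows are not reported here. Other peaks were named after their values were seen. Of each pathway list, genes with a WT DNMT1 peak in the window and up to 4 with the earliest WT DAXX peak within 10 kb were named. Alternatives changed the window, the TSS set, the overlap rule, the list length and the motif window.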

Additional observations from a re-analysis of the deposited data

How the results depend on the processing

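Of 69 alternative values for 20 results, 39 stayed within the allowed margin and 30 moved. With a window of 10 kb there were 38 WT and 23 K/D DAXX peaks, and with the first 50% of each list 23 and 22. With lists of equal length there were 41 WT peaks and, as before, 39 K/D peaks. There were 0 WT DNMT1 peaks with windows of 25 kb or 10 kb or with the first 50% of the list, and 0 in K/D with 10 kb or the first 50%. Within 1 kb of a TSS, 5 genes had a WT and 3 a K/D DAXX peak, and within 50 kb all 10 had a K/D peak. The median distance was 439 bp (WT) and 1829 bp (K/D) from the starts of all transcripts, 1773.5 and 7290.5 bp from the outermost start, and 3017.5 and 7338 bp in the first 50% of the lists. The share of WT DAXX peaks kept rose to 69.6% in the first 50% of the lists and to 68.3% in lists of equal length. Neither these medians nor these shares were counted over all genes or all peaks at the same settings. The share of H3(Lys4) regions kept was 9.41% with centres within 100 bp and 25.9% with at least 50% of each in common. A region lay within 1 kb of a TSS in 7 genes (WT) and 9 (K/D), on any annotated start in 5 (WT), and on the outermost start in 2 (K/D). WT DAXX peaks on H3(Lys4) made 50.8% with centres within 500 bp of a region and 13.0% in the first 50% of the lists. The latter setting also cut the H3(Lys4) list, whose order followed the caller's peak numbers less closely. Its share over all WT DAXX peaks was not counted. ETS motifs made 1.59% within 50 bp of the centre. The cause was not tested, beyond the smaller windows and shorter lists themselves.

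Leaving out a library was impossible with 1 per group. No paired analysis was possible because each group had 1 library, and no test was made. A peak absent from a list is one that was not called, and the lists give no signal below the limits.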
